A study of Mus musculus with 16 samples.

Results

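Normal maturation from stem and multipotent cells to granulocyte-monocyte progenitors was read from the 8 WT libraries among the 16 bulk RNA-seq libraries of the series. The members were fixed by the sample labels and by no measured value, and 4 libraries of WT GMPs were set against 4 libraries of WT LSKs with the replicate number as a block. LSKs (Lin-Sca-1+c-Kit+) were sorted from bone marrow and are a mixed compartment of stem cells and multipotent progenitors. GMPs from the same tissue were Lin-Sca-1-c-Kit+Cd16/32+. All mice were littermates of 8 to 12 weeks on a C57BL/6 background, and the WT mice carry an intact upstream regulatory element (URE), an enhancer of the PU.1 gene Spi1. The other 8 libraries come from LSKs and GMPs of URE mice, which lack this element, and they entered here only where the WT change was tested for a difference between genotypes. Libraries were made without strand information or molecular identifiers from up to 10 ng of RNA. Each is a bulk average, so that fewer cells of a type and less RNA per cell cannot be told apart.

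Hematopoietic stem cells divide rarely and keep the programmes of several lineages open. Factors such as Hlf, Mecom and Meis1 maintain them, and on the way to GMPs the C/EBP factors, PU.1 and Irf8 install the granulocyte and monocyte programmes. GMPs cycle fast and begin to build the azurophil (primary) granules of the later neutrophil, which hold myeloperoxidase and the serine proteases elastase, proteinase 3 and cathepsin G.

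Of 14767 genes tested, 2335 (15.8%) were higher and 3706 (25.1%) lower in GMPs than in LSKs, together 40.9% of the genes tested. The calls asked for more than a 1.5-fold difference at a false discovery rate under 0.05. Of the called genes, 1022 rises and 2565 falls exceeded 2-fold, and 169 rises and 513 falls exceeded 8-fold. The called direction held in all 4 same-numbered pairs for 2294 of the rises and 3641 of the falls. The fit was blocked on these same pairs, so these counts describe the calls and are no separate support for them. For 4629 genes (31.3% of those tested) the LSK and GMP libraries did not overlap. The median log2 fold change over all genes tested was -0.103, and the list medians below are to be read against it, as the list counts are against the 15.8% and 25.1%. A fit without the block called 1702 of the 14767 genes higher and 2335 lower. List counts given without the block are to be read against these.

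**Figure D1:**
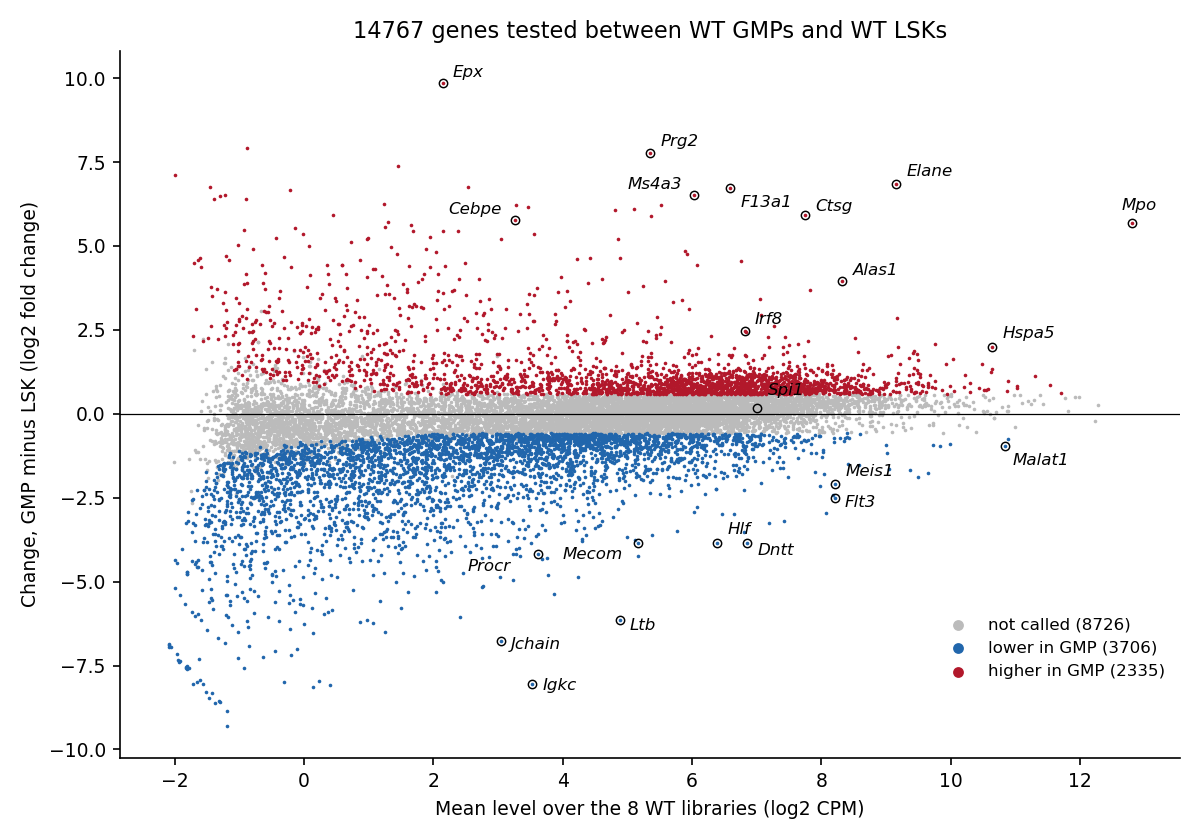
Each point is 1 of 14767 genes, with its mean level over the 8 WT libraries in log2 counts per 1000000 (CPM) on the x axis and its log2 fold change, GMP minus LSK, on the y axis. Red genes were called higher in GMPs (2335), blue genes lower (3706), and Mpo stands alone at the far right among the rises.

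Levels are counts per 1000000 (CPM). Total counts lay between 21339823 and 27867976 in the 8 libraries, and a count of 0 allows a level of up to 0.158 CPM (3 counts), which covers counting error only. Cell type separated the libraries on the first principal component (55.4% of the variance), and the second (25.2%) set replicates 1 and 4 apart from replicates 2 and 3 in both cell types. Of the genes of the sort, Ly6a and Fcgr3 went with the gates. Of 10 tested sorting markers and lineage antigens, 5 rose and 4 fell (50% and 40%), with log2 fold changes from -5.36 to 6.1. Ly6a, which encodes Sca-1, was at 76.8, 125, 83.1 and 91.1 CPM in the LSK libraries of replicates 1 to 4 and at 1.496, 2.35, 2.95 and 2.37 CPM in the GMP libraries. Fcgr3, which encodes Cd16, was at 8.69, 12.1, 13.4 and 10.2 CPM in LSKs and 232, 429, 396 and 251 CPM in GMPs. Kit, used in both gates, was at 1254 ± 522 CPM (SD, n = 4) in LSKs and 715 ± 424 CPM in GMPs. These values only check the labels.

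Granule genes rose steeply. Of 20 tested genes of primary granules and promyelocytes, 17 rose and none fell by edgeR's quasi-likelihood test, with a median log2 fold change of 2.70. Mpo, which encodes myeloperoxidase, was at 787, 977, 1275 and 978 CPM in the LSK libraries and at 49323, 59899, 44583 and 51408 CPM in the GMP libraries (log2 fold change 5.69 ± 0.19 (SE), adjusted p = 7.87e-07). It held 0.0890% to 0.149% of all counts in LSKs and 4.04% to 5.12% in GMPs. Its lowest GMP library was more than an order of magnitude above its highest LSK library. Mpo shares 512 exonic bases with the antisense gene Gm11505, and without strand the reads of both cannot be told apart there.

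Elane, neutrophil elastase, went from 39.3, 36.9, 78.3 and 69.2 CPM to 5093, 6324, 6165 and 7068 CPM (6.85 ± 0.22, adjusted p = 6.89e-07). Ctsg, cathepsin G, went from 15.2, 29.7, 47.96 and 27.3 CPM to 889, 2672, 3187 and 1024 CPM (5.91 ± 0.22). Its GMP libraries of replicates 2 and 3 were above those of replicates 1 and 4, and all were above every LSK library. Prtn3, proteinase 3, was already at 218 CPM in LSKs and rose to 1571 CPM, a smaller rise (2.84 ± 0.12) than that of its chromosomal neighbour Elane. Ms4a3, a membrane protein used to trace GMPs, rose from 7.33 to 647 CPM, and Hp, haptoglobin, from 3.42 to 227 CPM. Prss57, a further granule protease, rose from 35.4 to 175 CPM. The 3 tested members that were not called were Lyz2 (lysozyme, log2 fold change -0.41), Ctsc, which activates the serine proteases (0.42), and Mgst1, a glutathione transferase (0.55). Mgst1 passed without replicate 1 (0.60) or replicate 3 (0.61), by DESeq2 with the block (0.63) and with relative log expression size factors (0.62). It also passed without genes at 1% of counts or more (0.59) and in replicates 2 and 3 alone (0.61), and not in the other fits. At an unadjusted p under 0.05, 1 member was lower (Lyz2), and DESeq2 with the replicate block called none lower.

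The promoter stretches of 4 of these granule genes are shown because the genes rose together and the letters GAGGAA, the core recognized by PU.1 and other ETS factors, occur in each. They were picked for these letters, which 9 of the 17 primary granule genes with a window hold. Sequences are RefSeq windows on build GRCm38.p6, written 5′ to 3′ on the strand of the gene, and positions count back from -1, the base before the annotated start. Capitals mark GAGGAA, and in Ctsg also ACCACA, the reverse strand reading of the RUNX letters TGTGGT. The match begins at -85 in Elane, -95 in Prtn3, -247 and -224 in Mpo and -216 in Ctsg, whose RUNX match begins at -79.
Elane chr10:79886162-79886245, plus strand: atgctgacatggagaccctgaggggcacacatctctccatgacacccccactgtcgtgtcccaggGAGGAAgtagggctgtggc
Prtn3 chr10:79879507-79879590, plus strand: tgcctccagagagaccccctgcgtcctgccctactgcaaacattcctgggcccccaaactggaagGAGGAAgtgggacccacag
Mpo chr11:87793534-87793579, plus strand: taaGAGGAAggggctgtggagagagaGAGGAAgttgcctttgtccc
Ctsg chr14:56102635-56102824, minus strand: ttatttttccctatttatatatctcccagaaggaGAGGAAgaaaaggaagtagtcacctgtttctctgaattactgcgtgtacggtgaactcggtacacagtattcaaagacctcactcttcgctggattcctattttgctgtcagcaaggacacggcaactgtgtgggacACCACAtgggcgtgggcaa

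A RefSeq window of 250 bases before to 50 after the start was found for 9873 of 12377 tested protein-coding genes. Both strands were searched, and matches of different motifs may overlap. GAGGAA occurred in 22.5% of these windows, in 22.1% of those of genes called higher and in 23.7% of those of genes called lower. Among the 116 windows of genes that rose over 8-fold the share was 28.4%, and among the 315 that fell over 8-fold it was 27.9%. The C/EBP letters TTNNGNAA occurred in 29.1% of all windows, 31.3% of those of rising genes and 29% of those of falling genes. The share was 42.2% for genes that rose over 8-fold and 34.6% for those that fell over 8-fold. The RUNX letters occurred in 11.2% of all windows, 12.3% of those of rising and 11.4% of those of falling genes, and in 24.1% and 14.6% of those that rose or fell over 8-fold. Of the other letters searched, some were also more frequent in both of these groups than over all windows. The GATA letters AGATAA occurred in 6.13% of all windows and in 13.8% and 7.94% of those that rose or fell over 8-fold. In the same order the shares were 6.41%, 12.1% and 11.1% for the TATA box TATAAA and 56.8%, 67.2% and 66.7% for the E-box CANNTG. Others were more frequent in 1 group only. The MYB letters AACNGTT occurred in 2.88%, 4.31% and 2.54%, and their core AACNG in 72.9%, 80.2% and 72.7%. The letters of an interferon-stimulated response element, described further below, occurred in 2.8%, 0.862% and 6.98%. Windows of genes that rose over 8-fold had a median GC content of 51%, against 59.6% over all windows, and the part of base composition in these shares was not tested.

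Genes of the later neutrophil were split. Of 18 tested genes of secondary granules and late neutrophils, 10 rose, 1 fell and 7 did not pass. Cebpe, the C/EBP factor that drives granule maturation, was at 1.71, 0.824, 1.16 and 1.48 CPM in LSKs and 59.6, 57.4, 59.7 and 113 CPM in GMPs (5.76 ± 0.21, adjusted p = 1.02e-06). Trem3, a myeloid activating receptor, rose from 1.38 to 95.2 CPM. Cxcr2, the receptor by which neutrophils answer chemokines, was 3.195 CPM in LSKs and 17.2 CPM in GMPs. S100a8, a calcium binding alarmin, was at 14.6, 53.04, 20.4 and 10.2 CPM in LSKs and 11.7, 55.6, 56 and 10.1 CPM in GMPs (adjusted p = 0.353), and replicates 2 and 3 were the highest GMP libraries. Padi4, which citrullinates histones in neutrophils, fell from 124 to 25.4 CPM.

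Monocyte and dendritic cell genes rose in the same libraries. Of 30 tested, 19 rose and 2 fell, with a median log2 fold change of 1.24. Irf8, the factor that directs cells to the monocyte fate, was at 62.2, 55.2, 30.3 and 49.2 CPM in LSKs and 405, 240.1, 174 and 291 CPM in GMPs (2.48 ± 0.11, adjusted p = 3.32e-06). Csf1r, the receptor for M-CSF, went from 32.4, 22.7, 8.71 and 18.6 CPM to 272, 97.1, 40.9 and 143 CPM (2.59 ± 0.18). Both were lowest in replicate 3 of each cell type. F13a1, coagulation factor XIII, rose from 9.53 to 993 CPM and Ccr2, the chemokine receptor of classical monocytes, from 6.07 to 149 CPM. Ly86, a partner of a Toll-like receptor homologue, rose from 4.17 to 69.2 CPM. Tcf4, a factor of plasmacytoid dendritic cells, fell from 227 to 119.9 CPM, as did Nr4a1 at low levels (3.39 to 1.13 CPM). Of 39 pattern recognition and Fc receptor genes, 19 rose and 8 fell. Clec12a, an inhibitory lectin receptor of myeloid cells, rose from 40.6 to 452 CPM and Cd14, the co-receptor for lipopolysaccharide, from 5.81 to 38.7 CPM. Tlr4 fell from 26.7 to 15.1 CPM, Ly96, which binds lipopolysaccharide with it, from 7.63 to 3.09 CPM and Tlr7, a sensor of RNA, from 20.9 to 4.74 CPM.

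Of 23 tested genes of mast cells, basophils and eosinophils, 17 were higher and 2 lower. The median of their fitted log2 fold changes was 2.97, and the pair medians were 1.82, 2.95, 1.52 and 1.53 in replicates 1 to 4. Pair medians, here and below, were taken from CPM with a small constant added. This pulls the folds of genes at low levels towards 0, so they are not on the scale of the fitted median. Epx, eosinophil peroxidase, was at 0.262, 0, 0 and 0.329 CPM in LSKs and at 144, 148, 30.05 and 234 CPM in GMPs (9.86 ± 0.34, adjusted p = 9.3e-07). Replicate 3 had the lowest GMP value, still above every LSK library. The LSK levels of Epx rest on few counts, so that depth limits its fold. Prg2, the major basic protein of eosinophil granules, went from 5.84, 2.03, 1.24 and 2.96 CPM to 402, 1008, 634 and 582 CPM (7.79 ± 0.51, and 8.52 without replicate 1). Cpa3, a mast cell carboxypeptidase, rose from 23.9 ± 11.2 to 586 ± 307 CPM, and Mcpt8, a basophil protease, from 4.03 ± 2.11 to 93.4 ± 22.4 CPM. Hdc, which makes histamine, rose from 5.35 to 413 CPM. Il5ra, the receptor chain for the eosinophil cytokine IL-5, rose at low levels from 1.23 to 5.05 CPM. Gata2, needed by stem cells and mast cells alike, was at 76.7 and 48.4 CPM. It was called lower (log2 fold change -0.63), but not without replicate 3 (-0.57) or replicate 4 (-0.47), with relative log expression size factors (-0.56), by DESeq2 with the block (-0.55) or without the block (adjusted p = 0.449 by edgeR). These are levels in a bulk of sorted cells, and how many cells carried them was not measured here.

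Of 34 erythroid and megakaryocyte genes tested, 15 rose (44.1%, against 15.8% of all genes) and 5 fell (14.7%, below the 25.1% of all genes). Klf1, a master regulator of erythroid genes, was at 4.49, 5.36, 4.82 and 7.39 CPM in LSKs and 52.5, 79.9, 20.2 and 66.7 CPM in GMPs (3.20 ± 0.28, adjusted p = 4.76e-05). Gata1, the factor of erythroid cells, megakaryocytes and eosinophils, went from 6.63, 7.87, 6.94 and 14.01 CPM to 62.01, 63.9, 25.5 and 52.2 CPM (2.51 ± 0.25). For both, replicate 3 was the lowest GMP library. Car1, a carbonic anhydrase of red cell precursors, rose from 21.1 to 200 CPM, and Pf4, a platelet chemokine, from 13.3 to 81.3 CPM. Beta-globin Hbb-bt fell from 11.7, 37.6, 32.2 and 81.5 CPM to 1.54, 4.03, 2.6 and 1.79 CPM. Car2, a second carbonic anhydrase, fell from 1414 to 396 CPM and was among the largest losses in CPM of all called genes. Reads of the near-identical globin copies may have been split between them, so Hbb-bt is uncertain. The fitted median of the list was 0.61, and the pair medians were 1.11, 0.75, -0.03 and 0.16 in replicates 1 to 4.

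Among 38 tested myeloid transcription factor genes, 9 rose (23.7%, against 15.8% of all genes), 14 fell (36.8%, against 25.1%) and 15 did not pass. The fit without the block called 8 of the 38 lower, against 2335 of 14767 over all genes. Spi1 itself was at 130.3, 71.2, 138 and 169 CPM in LSKs and 141, 85.8, 186 and 155 CPM in GMPs, a log2 fold change of 0.17 ± 0.11 that did not pass (adjusted p = 0.193), and the 2 groups overlapped. Cebpa, which starts granulocyte commitment, was at 1.84, 4.53, 5.94 and 3.98 CPM in LSKs and 10.5, 21.3, 24.2 and 19.3 CPM in GMPs (2.25 ± 0.15, adjusted p = 1.46e-05). Myb rose from 171 to 299 CPM and Zeb2 from 79.7 to 195 CPM. Irf5, a factor of inflammatory macrophages, fell from 26.7 to 14.8 CPM. Runx1, a partner of PU.1, was at 84.7 and 73.2 CPM and did not pass (log2 fold change -0.26, adjusted p = 0.321).

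**Figure D2:**
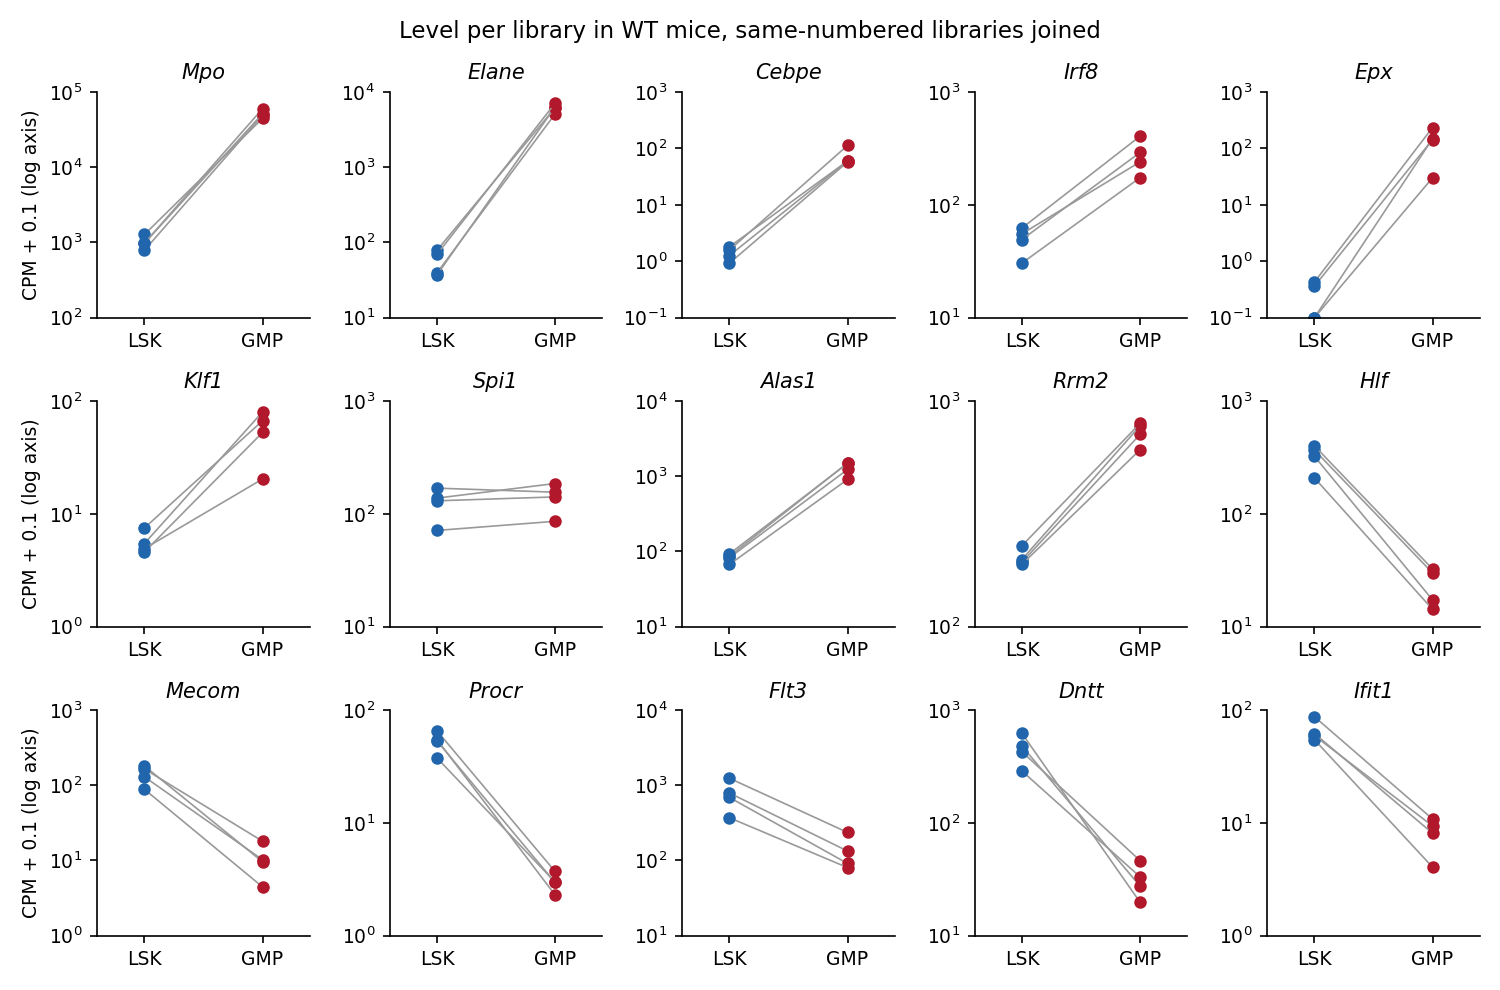
Each panel gives the level of 1 gene in the 4 WT LSK libraries (blue) and the 4 WT GMP libraries (red) as CPM plus 0.1 on a log axis, with same-numbered libraries joined by a line. The Spi1 levels of LSKs and GMPs overlapped, while Mpo, Elane, Cebpe, Irf8, Epx, Klf1, Alas1 and Rrm2 rose and Hlf, Mecom, Procr, Flt3, Dntt and Ifit1 fell in every pair.

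Most stem cell regulators fell. Of 33 tested transcription factor genes of hematopoietic stem cells, 22 fell and 1 rose, with a median log2 fold change of -1.24. Hlf, a marker and regulator of stem cell quiescence, was at 367, 323, 208 and 400.1 CPM in LSKs and 29.8, 17.2, 14.1 and 32.3 CPM in GMPs (-3.84 ± 0.13, adjusted p = 8.39e-07). Mecom, which sustains long-term stem cells, went from 179.9, 129, 88.1 and 164 CPM to 9.51, 10.1, 4.35 and 17.9 CPM (-3.84 ± 0.20). For both genes replicate 3 was the lowest library in each cell type, and the groups were far apart in every replicate. Meis1, a homeobox partner of Hox proteins, went from 577, 659.6, 636 and 578 CPM to 145, 166, 123 and 144 CPM (-2.09 ± 0.10), a fall with a narrow spread among the libraries.

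Mycn, a growth regulator, fell from 203 to 19.7 CPM, whereas Myc was at 744 and 861 CPM and did not pass (adjusted p = 0.103). Hoxa9 fell from 123 to 51.5 CPM and Hoxa10 from 35.04 to 3.47 CPM, while Hoxa7 was at 40.7 and 38.1 CPM and did not pass (adjusted p = 0.471). Gata3 fell from 49.8 to 5.77 CPM and Lmo2 from 218 to 59.5 CPM. Fli1 and Etv6, ETS factors of stem cells, were not called (log2 fold changes -0.19 and -0.26). The member that rose was Zbtb16, a zinc finger repressor, at 6.13, 1.099, 0.722 and 5.13 CPM in LSKs and 40.8, 5.84, 2.9 and 22.7 CPM in GMPs, and the 2 groups overlapped although each pair rose.

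At the surface, 30 of 39 tested genes of stem and multipotent cells fell and 1 rose (median log2 fold change -1.78). Procr, the protein C receptor EPCR that marks long-term stem cells, was at 53.2, 65.4, 54.7 and 37.5 CPM in LSKs and 2.86, 3.61, 2.2 and 2.89 CPM in GMPs (-4.18 ± 0.17, adjusted p = 1.74e-06). Flt3, the receptor of lymphoid-primed multipotent progenitors, went from 1237, 688, 369 and 788 CPM to 236, 91.1, 80.3 and 133 CPM (-2.52 ± 0.13), and its lowest LSK library (replicate 3) was above its highest GMP library (replicate 1). Esam fell from 43.8 to 3.53 CPM and Robo4, a guidance receptor of stem cells, from 22.4 to 1.04 CPM. Socs2 and Cish, feedback inhibitors of cytokine signalling, fell from 30.98 to 1.57 CPM and from 20.8 to 2.32 CPM. Angpt1, which encodes a ligand of the receptor Tek, fell from 572 to 205 CPM, and Tek itself from 38.9 to 16.5 CPM. Cd34 was at 1409 ± 99.3 and 1066 ± 121 CPM and fell short of the fold change asked for (log2 fold change -0.41, adjusted p = 0.00682).

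Genes of lymphoid priming fell at the same step. Of 27 tested genes, 19 fell and 3 rose (median log2 fold change -1.33). Dntt, the terminal transferase of lymphoid precursors, was at 479, 621, 427 and 288 CPM in LSKs and 27.4, 19.7, 46.2 and 33.1 CPM in GMPs (-3.85 ± 0.31, adjusted p = 3.41e-05). Il7r, the IL-7 receptor chain, fell from 12.3 to 1.095 CPM and Rag2, a recombinase subunit, from 15.99 to 4.34 CPM. Ltb, lymphotoxin beta, listed with the progenitor surface genes, fell from 208, 303, 363 and 156 CPM to 2.99, 4.66, 3.0 and 3.42 CPM (-6.14 ± 0.22). Notch1 fell from 46.6 to 23.5 CPM.

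Immunoglobulin transcripts had some of the largest folds. Jchain, the joining chain of secreted antibodies, was at 71.7, 228, 107 and 133 CPM in LSKs and 6.29, 0.126, 0.2 and 0.158 CPM in GMPs (-6.76 ± 0.98, adjusted p = 6.19e-04). Igkc, the kappa light chain constant region, was at 174, 480, 374 and 386 CPM in LSKs and 7.97, 0.084, 0 and 0.158 CPM in GMPs (-8.05 ± 1.12). Replicate 1 held nearly all of the little that the GMP libraries had of either transcript. Without it the log2 fold changes were -9.86 for Jchain and -12.2 for Igkc, and without each of the others they ran from -6.05 to -6.25 and from -7.22 to -7.45. Without replicate 1 the GMP levels of both lay near the level allowed by a count of 0, so that depth limits those folds. Of 14 markers of mature B cells listed, 6 were abundant enough to be tested, of which 3 fell and 1 rose. Cd79a, a chain of the B cell receptor complex, was at 1.05, 1.65, 0.642 and 0.739 CPM in LSKs and 0.132, 0.042, 0 and 0.105 CPM in GMPs. The summed level of the tested B cell markers was 798 to 1370 CPM in LSKs and 387 to 538 CPM in GMPs. Most of that sum was Ighm, the mu heavy chain. The part of B cells in the fall of Jchain and of the lymphoid genes was not tested.

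Markers of other cell types were followed as well. Of 15 markers of mature macrophages, 14 were tested, 2 rose and 2 fell. C1qb, a complement subunit of tissue macrophages, was at 17.3, 30.2, 14.7 and 23.2 CPM in LSKs and 16.5, 37.3, 19.1 and 22.6 CPM in GMPs (adjusted p = 0.35), and the groups overlapped. Of 18 T and NK cell markers, 8 were tested and 5 fell, the most abundant of them Cd4, from 5.699 to 1.74 CPM. Nkg7, listed with NK cells and known in GMPs too, rose from 180.1 to 817 CPM. Of 18 endothelial and stromal markers, 8 were tested and 3 fell, among them Emcn, which stem cells also express, from 42.9 to 3.65 CPM. Of 11 markers of plasmacytoid dendritic cells, 9 were tested, 6 fell and none rose (edgeR's quasi-likelihood test, none at an unadjusted p under 0.05 and none by DESeq2). Ccr9, a homing receptor of these cells and of lymphoid precursors, fell from 7.52 to 0.125 CPM, and Siglech, their defining lectin, was at 0.548 and 0.556 CPM. Their summed level was 396 to 535 CPM in LSKs and 215 to 261 CPM in GMPs, with Tcf4 and Irf7 counted in it, and the part of such cells in the falls below was not tested. The sort left out cells stained for Cd45r, a surface antigen of plasmacytoid dendritic cells and B cells.

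Of 42 cytokine receptors tested, 19 fell (45.2%, against 25.1% of all genes) and 7 rose (16.7%, near the 15.8% of all genes). Without the block 11 fell and 4 rose. Csf2ra, the GM-CSF receptor alpha chain, rose from 27.4 ± 6.86 to 65.5 ± 7.92 CPM and Csf2rb, the beta chain it shares with the IL-3 and IL-5 receptors, from 31.7 to 55.4 CPM. Il3ra rose from 19.1 to 32.1 CPM, and Il1rl1, the IL-33 receptor of mast cells and basophils, from 1.28 to 14.03 CPM. Ifngr1, an interferon gamma receptor chain, rose from 252 to 623 CPM. Il1r1 fell from 94.4 to 19.4 CPM, Il17ra from 162 to 44.1 CPM and Il18rap from 67.8 to 19.02 CPM. Il2rg, the chain shared by several interleukin receptors, fell from 391 to 181 CPM, and Tgfbr2 from 71.6 to 30.4 CPM.

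Interferon-stimulated genes fell as a group. Of 52 tested, 43 fell and 1 rose, with a median log2 fold change of -1.58. Ifit1, which blocks translation of viral RNA, was at 59.2, 87.04, 54.4 and 61.8 CPM in LSKs and 9.29, 10.7, 3.95 and 7.99 CPM in GMPs (-3.08 ± 0.18, adjusted p = 7.58e-06). Irf7, the factor that amplifies the interferon response, went from 119, 82.8, 40.3 and 91.8 CPM to 16.3, 13.4, 3.9 and 14.9 CPM (-2.85 ± 0.14). Iigp1, an interferon-inducible GTPase, went from 116, 142, 105 and 92.7 CPM to 6.47, 10.8, 9.399 and 9.25 CPM (-3.67 ± 0.15). No GMP library reached the lowest LSK library for any of these genes. Stat2, which carries interferon signals, fell from 58.9 to 31.8 CPM and Irf9, its partner, from 184 to 75.6 CPM. The member that rose was Ly6e, which restricts virus entry, from 840 to 1335 CPM. Gbp, Irgm and Tgtp genes have near-identical copies, so that single members of these families are uncertain.

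Promoter stretches of 4 interferon-stimulated genes are shown because these members fell together and carry the letters of an interferon-stimulated response element, here GAAA, any 2 bases and GAAA, on either strand. This motif was added after the values had been seen. Capitals mark the matches, which overlap one another in Isg15, and a match on the reverse strand reads TTTC, any 2 bases and TTTC.
Isg15 chr4:156200849-156200928, minus strand: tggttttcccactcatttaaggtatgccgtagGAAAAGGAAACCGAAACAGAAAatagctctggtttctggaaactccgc
Ifit1 chr19:34640759-34640848, plus strand: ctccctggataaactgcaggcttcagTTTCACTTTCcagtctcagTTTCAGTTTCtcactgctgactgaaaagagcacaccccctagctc
Ifit3 chr19:34583349-34583438, plus strand: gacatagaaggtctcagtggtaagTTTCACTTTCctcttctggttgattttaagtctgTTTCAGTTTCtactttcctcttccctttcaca
Rsad2 chr12:26456523-26456602, minus strand: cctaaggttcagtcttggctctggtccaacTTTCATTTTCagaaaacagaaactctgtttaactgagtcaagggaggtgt
Isg15, a ubiquitin-like modifier, fell from 17.6 to 5.22 CPM, Ifit3 from 31.99 to 3.63 CPM and Rsad2, viperin, from 28.7 to 5.04 CPM. Of 38 members of the list with a window, 17 (44.7%) had the letters, against 2.8% of all windows. Genes that fell over 8-fold, interferon genes included, had them in 6.98% of windows and genes that rose over 8-fold in 0.862%. The list holds genes chosen for their response to interferon, so its high share is no result about the fall. The C/EBP letters occurred in 52.6% of the same 38 windows, against 29.1% of all windows. Median GC content was 51.8% in these windows, against 59.6% over all.

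Antigen presentation fell in part. For MHC class II, 8 of 10 genes fell (5 without replicate 1), among them Ciita, the class II transactivator, from 7.82 to 1.65 CPM. For MHC class I and peptide loading, 10 of 22 fell and 1 rose. H2-K1, a classical heavy chain, fell from 1394 ± 195 to 749 ± 96.8 CPM. B2m, the light chain, fell from 2562 ± 856 to 1600.4 ± 779 CPM, which did not pass without replicate 4 (log2 fold change -0.51) or without the block (adjusted p = 0.227 by edgeR). Nlrc5, the class I transactivator, fell from 47.5 to 19.5 CPM. Tap1, the peptide transporter, was at 229.8 and 180.1 CPM and was not called (adjusted p = 0.022).

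Stress and immediate early genes followed the same direction, with 19 of 30 lower and 3 higher (median log2 fold change -0.94). Without the block 12 were lower and 1 higher. Zfp36, which destabilizes cytokine mRNA, fell from 48.8 ± 12.5 to 9.83 ± 3.45 CPM, and Jun from 15.97 to 3.74 CPM. Socs3, an inhibitor of cytokine signalling, fell from 10.6 to 1.75 CPM.

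Of 39 genes in a list of cell cycle brakes, D cyclins and quiescence genes, 15 fell (38.5%, against 25.1% of all genes), 5 rose (12.8%, below the 15.8% of all genes, and 3 without the block) and 19 did not pass. Ndn, necdin, an imprinted gene that holds stem cells in quiescence, was at 22.1, 18.6, 8.63 and 25.8 CPM in LSKs and 0.484, 0.756, 0.8499 and 0.736 CPM in GMPs (-4.64 ± 0.33, adjusted p = 1.97e-05). Tsc22d1 fell from 681 to 126 CPM and Foxo3, a factor of stem cell quiescence, from 94.2 to 48.2 CPM. Cdk6, the kinase that opens the cell cycle for stem cells, went the other way, from 563, 485, 726 and 579 CPM to 1640.3, 1164, 1631 and 2256 CPM (1.48 ± 0.14). Ccnd2, a D cyclin, was at 492 and 416 CPM and was not called. Of 15 tested imprinted genes, 9 fell and none rose (edgeR's quasi-likelihood test, 1 at an unadjusted p under 0.05 and none by DESeq2), and Igf2r, which clears IGF2, went from 53.8, 21.5, 13.5 and 50.9 CPM to 2.51, 1.97, 0.8999 and 3.21 CPM (-3.95 ± 0.19). Grb10, a growth factor adaptor of this list, was at 77.6 and 72.2 CPM and was not called.

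Proliferation genes rose widely, by a median of less than 2-fold. Of 59 genes of DNA replication and S phase, 37 rose and 0 fell (median 0.72), and of 66 mitosis genes 55 rose and 0 fell (median 0.80) by edgeR's quasi-likelihood test. At an unadjusted p under 0.05, 0 replication genes and 1 mitosis gene were lower, and DESeq2 with the replicate block called none lower in either list. Rrm2, the regulated subunit of ribonucleotide reductase, was at 193, 198, 189 and 228 CPM in LSKs and 711, 776, 608 and 795 CPM in GMPs (1.83 ± 0.09, adjusted p = 3.78e-06). Mcm5, a subunit of the replicative helicase, rose from 299 ± 76.5 to 575 ± 199.8 CPM. Mki67 rose from 167 to 315 CPM, Ccnb1, cyclin B1, from 162 to 359.5 CPM and Aurkb, a mitotic kinase, from 91.5 to 222 CPM. Mcm7, of the same helicase as Mcm5, had a log2 fold change of 0.47 and was not called.

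Many genes of growth and ribosome synthesis rose as well. Of 50 ribosome biogenesis genes, 39 rose and none fell (edgeR's quasi-likelihood test, none at an unadjusted p under 0.05 and none by DESeq2), with a median log2 fold change of 0.76. Ncl, nucleolin, rose from 905 to 1562 CPM and Npm1, nucleophosmin, from 767 to 1387 CPM. Nhp2, of the pseudouridine synthase complex, rose from 113 to 303 CPM. Of the 83 cytosolic ribosomal proteins, 10 rose (12%, below the 15.8% of all genes) and 73 did not pass. That count was 4 without replicate 3 or without the block and 26 without replicate 4. Their median was 0.32, and the pair medians were 0.38, 0.37, 0.71 and -0.19 in replicates 1 to 4. Of 27 genes of one-carbon, nucleotide and polyamine synthesis, 17 rose, among them Srm, spermidine synthase, from 12.9 to 51.8 CPM. Eif5a, the translation factor that carries hypusine, rose from 1714 to 3724 CPM.

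Genes of the secretory route rose too. Of 59 genes of endoplasmic reticulum folding and translocation, 46 rose and 1 fell (median 1.04). Hspa5, the chaperone BiP, was at 660.1, 1214, 856 and 592 CPM in LSKs and 2583, 4616, 2727 and 3204 CPM in GMPs (adjusted p = 1.5e-05), with replicate 2 highest in both. Sdf2l1 rose from 49.6 to 379.8 CPM, Calr, calreticulin, from 370 to 1353 CPM and Pdia3, a disulfide isomerase, from 863 to 2419 CPM. Atf4, a factor of the unfolded protein response, was at 39.2 and 44.6 CPM and was not called (adjusted p = 0.356).

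Genes of energy metabolism changed unequally. Of 78 nuclear genes of oxidative phosphorylation, 60 rose and none fell (edgeR's quasi-likelihood test, 1 at an unadjusted p under 0.05 and none by DESeq2), with a median of 0.82. Uqcrq, a complex III subunit, rose from 78.2 to 248 CPM and Cox5a, of complex IV, from 153 to 370 CPM. None of the 13 genes encoded by the mitochondrion was called by the test used throughout or by DESeq2, and their log2 fold changes ran from -0.625 to 0.484. Their pair medians were -0.05, 0.04, 0.52 and -0.43 in replicates 1 to 4, and 1 of them was called lower without replicate 2, 2 lower without replicate 3, 2 higher without replicate 4 and 2 lower with upper quartile size factors. With thinned counts, without a filter or with a filter of 1 CPM, 1 was called lower. Replicates 1 and 4 alone gave 3 lower, and replicates 2 and 3 alone gave 3 higher. At an unadjusted p under 0.05, 1 of them was higher and 2 were lower. Of 26 glycolysis and glucose uptake genes, 11 rose (42.3%) and 7 fell (26.9%, near the share of all genes). Hk3, the hexokinase of myeloid cells, rose from 76.9 to 266 CPM and Pgam1 from 267 to 654 CPM. Aldoc, an aldolase isoform, was at 22.9, 22.9, 18.7 and 23.7 CPM in LSKs and 2.55, 2.77, 1.85 and 2.63 CPM in GMPs (-3.17 ± 0.15), while Aldoa rose from 631 to 987 CPM. The glucose transporter Slc2a3 fell from 183 to 44.3 CPM. Of the lactate dehydrogenase subunits, Ldha rose from 523 ± 113 to 981 ± 187 CPM and Ldhb fell from 216 ± 34.1 to 104 ± 21.5 CPM.

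Genes of the oxidative burst and a part of those of haem supply also rose. Alas1, the rate-limiting enzyme of haem synthesis outside red cells, was at 82.3, 85.9, 67.1 and 92.7 CPM in LSKs and 1229, 1499.8, 906 and 1481 CPM in GMPs (3.94 ± 0.11, adjusted p = 4.57e-07). Of the 24 haem and iron genes tested, 8 rose and none fell (edgeR's quasi-likelihood test, 4 lower at an unadjusted p under 0.05 and none by DESeq2), and 16 did not pass. Without the block 5 rose, and 1 fell without replicate 2 or replicate 3. Tfrc, the transferrin receptor, rose from 19.03 to 83.8 CPM. Of 15 genes of the pentose phosphate pathway and the NADPH oxidase, 13 rose. Cybb, the catalytic subunit of the phagocyte oxidase, rose from 4.16 to 35.3 CPM and Idh1, a source of cytosolic NADPH, from 65.3 to 324 CPM.

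Of 49 autophagy genes, 19 fell (38.8%, against 25.1% of all genes) and 2 rose. In the fit without the block 7 fell, a share below that of all genes there (2335 of 14767). Without replicate 1 or replicate 3 the rises numbered 4. Sesn1, a sestrin that restrains mTORC1, fell from 317 to 126 CPM and Sqstm1, the cargo receptor p62, from 227 to 137 CPM, whereas Becn1 rose from 161 to 250.2 CPM. Of 41 lysosome genes 11 rose (26.8%) and 9 fell (22%, below the share of all genes, and 5 genes without the block), with Ctsz rising from 116 to 387 CPM and Ctso falling from 114 to 39.5 CPM. Of 38 DNA methylation and Polycomb genes, 10 fell (26.3%, near the 25.1% of all genes, and 6 genes without the block) and 1 rose (3, 3 and 4 without replicates 1, 2 and 3). Tet1, which oxidizes methylated cytosine, fell from 88.3 to 32.04 CPM and Ezh1, a Polycomb methyltransferase, from 76.1 to 34.9 CPM. Cholesterol synthesis, with 4 rises (7 without replicate 3) and 8 falls among 35 genes (2 and 2 without the block), and apoptosis regulators, with 6 and 7 among 30, had shares near those of all genes. Bcl2 rose from 61.3 to 122 CPM and Fdps, which makes isoprenoid precursors, from 54.6 to 182 CPM.

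Genes of lipid mediators, transport and adhesion were examined too. Alox5, 5-lipoxygenase, rose from 1.37 to 22.2 CPM, and Lta4h, the next enzyme towards leukotriene B4, from 292 to 1176 CPM. Ptgs1, cyclooxygenase 1, fell from 61.1 to 20.9 CPM and Tbxas1, thromboxane synthase, from 143 to 46.6 CPM. Over the eicosanoid list of 17 tested genes, 4 rose and 8 fell (23.5% and 47.1%, against 15.8% and 25.1% of all genes). Of 36 ABC transporter and xenobiotic genes, 9 rose and 11 fell (25% and 30.6%), and Abcg2, the pump of the stem cell side population, fell from 102 to 59.4 CPM. Of 38 adhesion and homing genes 6 rose and 13 fell (15.8%, as over all genes, and 34.2%), with S1pr1, the receptor for blood sphingosine phosphate, falling from 30.02 to 7.73 CPM. Of 21 chemokine genes, 7 rose and 7 fell (33.3% each).

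**Figure D3:**
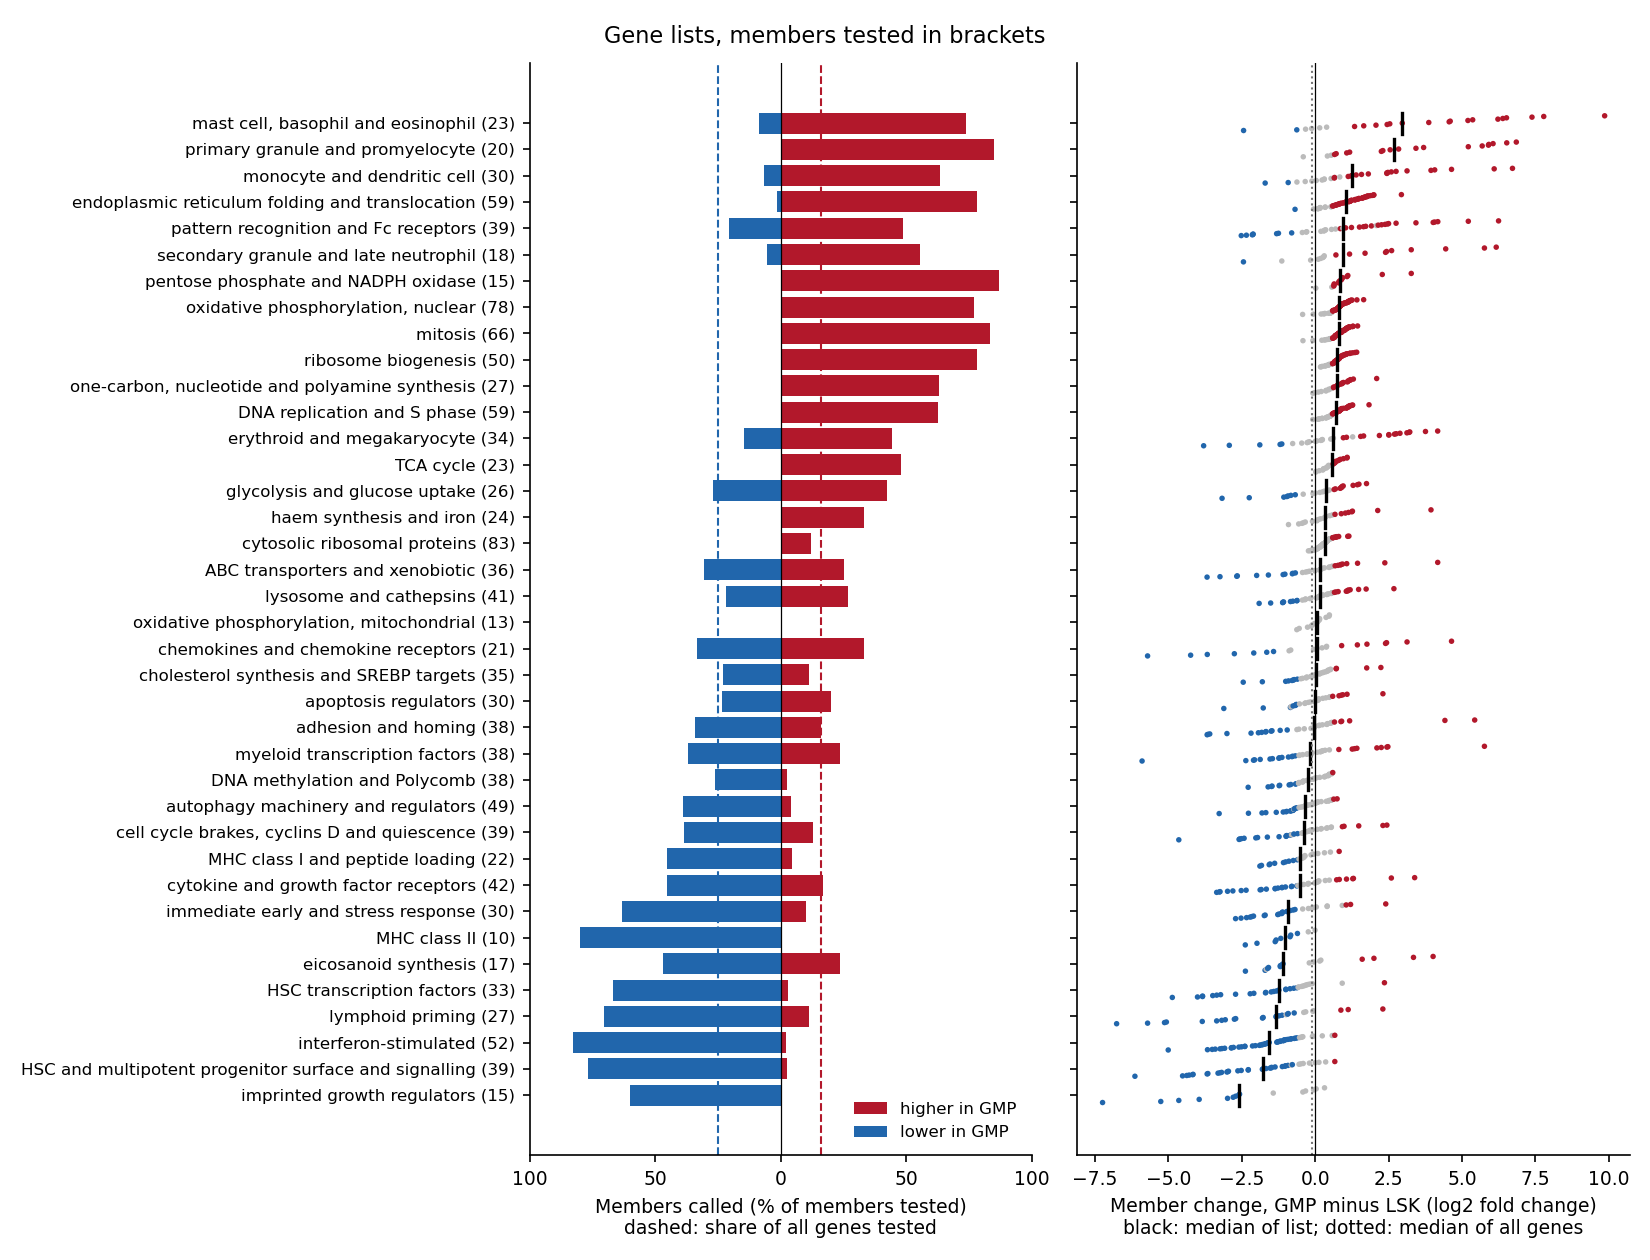
For each gene list, ordered by median, the left panel gives the share of its tested members called higher (red) or lower (blue) in GMPs as percent, with dashed lines at the shares over all genes tested (15.8% and 25.1%). The right panel gives the log2 fold change of every tested member, coloured by its call, with the list median as a black bar and the median of all genes as a dotted line. The lists for granules, growth and mitosis lie right of 0 and those for stem cells, lymphoid priming and interferon left of it.

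A few genes behaved almost as switches. With at least 10 CPM in every library of one cell type and under 1 CPM in every library of the other, 12 genes were found in GMPs and 8 in LSKs. These were picked after their values had been seen. Beside Epx and Prg3, the GMP genes included Mefv, pyrin, at 0.232 and 17.97 CPM, and Itga1, an integrin chain, at 0.498 and 21.7 CPM. The LSK genes included Lhcgr, the receptor for luteinizing hormone, at 30.1, 23.01, 17.7 and 24.3 CPM in LSKs and 0.616, 0.378, 0.05 and 0 CPM in GMPs. Trib3, a pseudokinase, was at 21.2 and 0.4002 CPM.

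Several of the largest changes lay outside the lists. Sgms2, a sphingomyelin synthase, was at 1.05, 1.34, 0.843 and 1.19 CPM in LSKs and 92.6, 96.8, 56.7 and 82.2 CPM in GMPs (6.21 ± 0.13) and had the smallest p of all rises (adjusted p = 2.36e-07). Anxa3, an annexin of neutrophils, rose from 12.1 to 321 CPM. Tnip3, an inhibitor of NF-kB signalling, was at 96.02, 108, 99.3 and 97.1 CPM in LSKs and 2.86, 4.37, 3.25 and 3.47 CPM in GMPs (-4.85 ± 0.12) and had the smallest p of all falls (adjusted p = 3.28e-07). Tox, a factor of lymphoid development, fell from 73.1 ± 14.8 to 2.64 ± 0.936 CPM and Mn1, a coactivator linked to myeloid leukemia, from 162 ± 44.4 to 8.98 ± 4.09 CPM. Myof, a membrane repair protein, had a log2 fold change of -4.34, Fstl1, a secreted glycoprotein, of -3.85 and Arhgef10, a guanine nucleotide exchange factor, of -4.17. Malat1, a nuclear noncoding RNA, was at 1989, 1810.2, 9276 and 1249 CPM in LSKs and 1069.6, 896, 4463 and 684 CPM in GMPs (-0.96 ± 0.09), and replicate 3 was far above the others in both cell types. Its mean loss of CPM was the largest of the called genes over all replicates (-1803 CPM) and the fifth without replicate 3 (-799.5 CPM), where that of Adgrg1 was the largest (-1481 CPM). It shares 453 exonic bases with Gm37376 on the other strand. The adhesion receptors Adgrg1 and Adgrl4 fell from 1854 to 641 CPM and from 1193 to 374 CPM.

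Noncoding genes took part unequally. Of 465 antisense genes tested, 5.59% rose and 32.9% fell, and of 347 lincRNAs 11.5% rose and 32.3% fell, against 17.4% and 24.8% of 12377 protein-coding genes. The libraries keep no strand, so counts of antisense genes can include reads of their partners. Among the genes named here, Csf1r shares 873 exonic bases with Hmgxb3, Meis1 896 with Gm16140 and Becn1 3104 with Cntd1 on the other strand. Likewise Ccr9 shares 1932 with AC165425.1, Prss57 1157 with Fstl3 and Notch1 1068 with 0610009E02Rik. The values of these genes are uncertain to that extent. Protein-coding genes that rose had a median exonic length of 3603 bases and those that fell of 4762 bases, against 4455 bases over all tested, and the part of length in these calls was not tested.

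In GMPs fewer genes were needed to reach 50% of the counts. In GMPs 595 to 841 of the most abundant genes held 50% of the counts of a library, and in LSKs 932 to 1176 (means 711 ± 114 and 1041 ± 112, SD, n = 4, p = 0.0286 in an exact permutation test, two-sided, which cannot go lower with 4 libraries a group). The 10 most abundant genes held 7.63% to 9.29% of counts in GMPs and 3.36% to 5.49% in LSKs (exact permutation test, p = 0.0286). Without Mpo the ranges were 3.58% to 5.19% and 3.37% to 5.50%, which overlap (p = 0.686, exact permutation test), so that this difference rested on Mpo. For the number of genes at 50%, the ranges without Mpo were 666 to 939 and 935 to 1177 (p = 0.0571, exact permutation test). This test takes no account of the replicate numbers, within which the differences without Mpo were -238, -239, -269 and -226 genes in replicates 1 to 4. Genes with at least 1 count numbered 19904 to 21014 in GMPs and 21862 to 22802 in LSKs, and counts per gene also depend on its length.

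**Figure D4:**
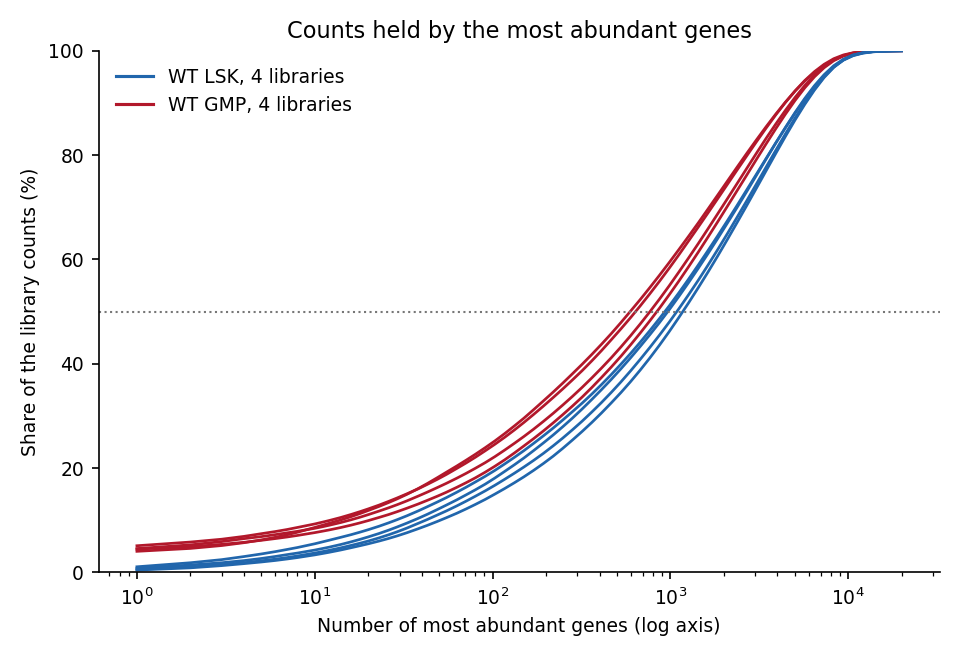
The lines give, for each of the 8 WT libraries, the share of counts in percent held by its most abundant genes, against their number on a log axis. The GMP lines (red) lie above the LSK lines (blue) and cross the dotted 50% line at 595 to 841 genes, against 932 to 1176.

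Whether the WT change differs from that in mice without the enhancer was asked with a genotype by cell type term in a joint fit of the 16 libraries. Of 15935 genes tested, 1190 (7.47%) had a different change at an adjusted p under 0.05, with no fold change asked for, 717 more positive in URE mice and 473 more negative. Both changes share the fit, and their values are given side by side. CPM in this fit were scaled over the 16 libraries and so differ slightly from those given above for the WT libraries alone. Tinagl1, a matrix protein, went from 17.7 ± 2.65 to 0.859 ± 0.197 CPM in WT mice and from 23.6 ± 10.5 to 28.2 ± 5.56 CPM in URE mice (difference of log2 fold changes 4.70 ± 0.35, adjusted p = 8.57e-05), and the change in URE mice alone did not pass (adjusted p = 0.248, edgeR). Fbp1, of gluconeogenesis, changed by -0.76 on the log2 scale in WT mice and by 3.74 in URE mice, with LSK levels of 34.4 ± 9.31 and 2.02 ± 0.488 CPM. Siglecg, an inhibitory lectin, was at 13.2 ± 0.726 and 12.5 ± 3.603 CPM in WT LSKs and GMPs.

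For Fbp1 and Prss57 the mean levels of the genotypes differed by a larger factor in LSKs than in GMPs. Prss57 had 34.6 ± 2.72 CPM in WT LSKs, 6.76 ± 0.807 in URE LSKs, 172 ± 18.9 in WT GMPs and 298 ± 103 in URE GMPs. Ldhb had 211 ± 33.2, 78.4 ± 20.03, 102 ± 21.1 and 3.68 ± 1.23 CPM in the same order, with the larger factor in GMPs. H2-Q7, a nonclassical class I gene with close copies and therefore uncertain, changed by -1.56 in WT and 0.90 in URE mice. The count of such genes fell to 194 without the replicate block and lay between 273 and 1603 when 1 replicate number was left out (273 without replicate 1, 425 without replicate 2, 1603 without replicate 3 and 344 without replicate 4).

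**Figure D5:**
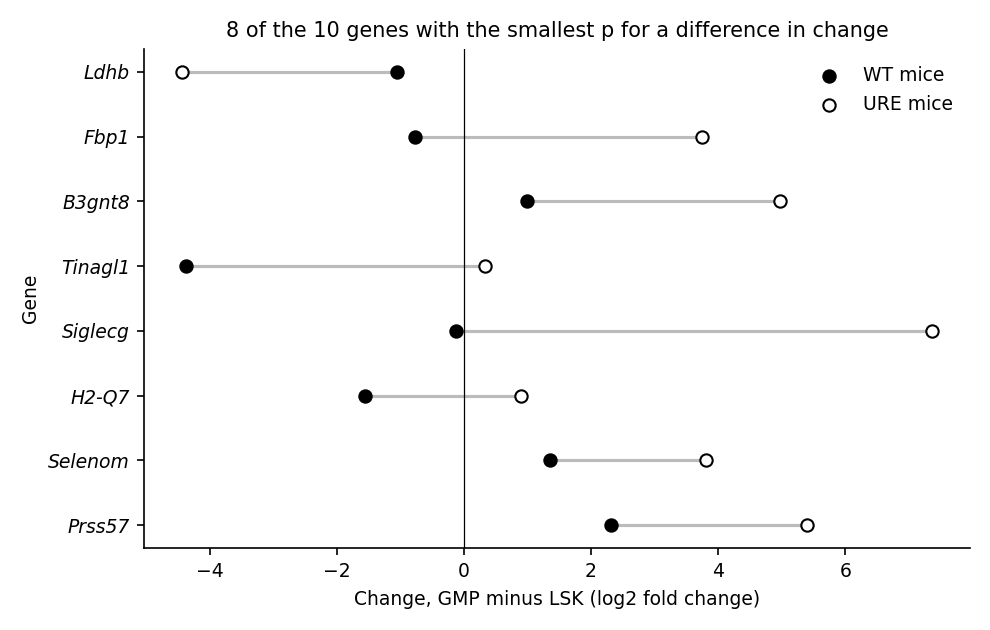
For 8 of the 10 genes with the smallest p in the interaction test, the log2 fold change from LSK to GMP is shown on the x axis for WT mice (filled) and URE mice (open), joined by a line. Ldhb fell in both, by more in URE mice, Tinagl1 passed the test as lower in WT mice alone, Fbp1 had opposite signs, and the URE value of Siglecg rests on LSK levels near 0 and is no bound.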

How the data were processed

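RNA-seq libraries of sorted LSKs and GMPs were prepared from total RNA with a low-input kit without strand information, and the labels give the molecule as poly(A) RNA. Per the methods and the submitters' processing notes, the authors quantified transcripts with Salmon on GRCm38, and the version of the tool was not given in the sources used here. The authors deposited 1 table of estimated counts per gene for 54347 genes in 16 libraries, rounded to whole numbers and not normalized. Names, coordinates and lengths came from GENCODE M21 (GRCm38), and promoter windows from RefSeq (GRCm38.p6), 250 bases before to 50 after the start.

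From these counts, genes were filtered with filterByExpr, scaled by the trimmed mean of M values (TMM) and tested with edgeR 4.0.16 (quasi-likelihood F-test, Benjamini-Hochberg adjustment, R 4.3.3) with cell type and replicate number in the model. The interaction with genotype was fitted over all 16 libraries. CPM are counts per 1000000 of TMM-scaled library size, and all levels compare libraries and not genes of different length. The called threshold follows the methods of the study, which used DESeq2 without a stated block. The labels do not say that same-numbered LSK and GMP libraries come from the same mouse. Deviations from the group means of same-numbered libraries correlated at 0.922, 0.828, 0.868 and 0.646 over 9134 genes, against -0.796 to 0.478 for other pairs, so the numbers were taken to pair the samples. P-values of the blocked fits measure the spread between these libraries that is left once the replicate numbers are fitted. The spread between replicate numbers is not in them.

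The comparison and the gene lists were chosen with earlier results of these data known. Genes to be named were members of the lists, the 15 largest rises and 15 largest falls in fold among called protein-coding genes with a mean log2 CPM of at least 3 and no overlap between groups (sorting markers left out), the 10 largest gains and 10 largest losses in CPM, the 5 smallest p-values in each direction and the 10 smallest of the interaction. A few genes are not reported here. Members of lists named with values were picked with their values known. Alternatives were DESeq2 1.42.0, other size factors, filters and thresholds, fits without the block, thinned counts and leaving out each replicate. The number of genes at 50% of counts and the share of the 10 most abundant genes were compared by exact two-sided permutation tests (scipy 1.17.1).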

Additional observations from a re-analysis of the deposited data

Results flagged for a closer look

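In some groups of 4 libraries 1 library stood apart from the other 3 by Dixon's criterion, for 12 of 356 group and gene combinations examined, where about 17.8 would be flagged by chance. In GMPs, Cebpe was at 113 CPM in replicate 4 against 57.4 to 59.7 CPM in the others. Jchain was at 6.29 CPM in GMP replicate 1 against at most 0.2 CPM, and Igkc at 7.97 CPM in the same library against at most 0.158 CPM. Ly96 was at 4.75 CPM in GMP replicate 3, Il2rg at 252 CPM in GMP replicate 4 and Tbxas1 at 36.8 CPM in GMP replicate 3. In LSKs, Gata1 was at 14.0 CPM in replicate 4 against 6.63 to 7.87 CPM. Nlrc5 was at 60.1 CPM in LSK replicate 1, Atf4 at 48.2 CPM in LSK replicate 2 and Aldoc at 18.7 CPM in LSK replicate 3. Malat1 stood apart in replicate 3 of both cell types, at 9280 CPM in LSKs (1250 to 1990 CPM in the others) and 4460 CPM in GMPs (684 to 1070 CPM).

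The change from LSKs to GMPs differed between URE and WT mice for 8 genes among the 10 with the smallest p of the interaction test, given as the difference of log2 fold changes, URE minus WT. The difference was -3.38 for Ldhb, 4.51 for Fbp1, 3.98 for B3gnt8 and 4.7 for Tinagl1. It was 2.46 for H2-Q7, 2.45 for Selenom and 3.08 for Prss57. The fitted difference of 7.49 for Siglecg is no bound, since this gene was near 0 in URE LSKs.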

How the results depend on the processing

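Of the counts of called genes, an adjusted p under 0.01 with a fold change above 2 left 920 rises and 2193 falls, and a test against 1.5-fold (glmTreat) 1381 and 2458. Other size factors gave 1946 to 2707 rises and 3412 to 4180 falls, and leaving out 1 replicate 2187 to 2433 rises and 3237 to 3642 falls. DESeq2 called 2847 rises and 3613 falls with the block, and 2368 rises and 2872 falls without it. Rises were 44.1% and 45.2% of these calls, against 38.7% in the edgeR fit used throughout. Without the replicate block, 1702 rises and 2335 falls passed, and 194 genes differed in their change between genotypes in place of 1190. Of the 178 genes named with values, 16 lost their call without the block, namely Kit, Gata2, Nr4a1, B2m, Irf5, Zbtb16, Tek, Notch1, Csf2rb, Il3ra, Il17ra, Tgfbr2, Stat2, Ezh1, Malat1 and Adgrg1. The interaction count was 1895 without a filter on low counts, 2330 by DESeq2 with the block, and 273 to 1603 when a replicate was left out. List counts of 3 or fewer moved, by at most 3 genes, for 14 of 36 combinations of list and direction when a replicate was left out. The cause of these differences was not tested.

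For the number of genes at 50% of counts, the difference between GMPs and LSKs was -243 without Mpo (p = 0.0571, exact permutation test), and -329 to -335 when a replicate was left out, where 0.1 is the smallest p possible. For the share of the 10 most abundant genes it was 0.252 percentage points without Mpo, which was chosen after seeing the data, and 4.05 to 4.67 when a replicate was left out. Changes that had not been called turned sign in replicates 1 and 4 alone for S100a8 (-0.154), Hoxa7 (0.00628), C1qb (-0.0393) and Atf4 (-0.0798), and when a replicate was left out for S100a8 (-0.0753 to 0.543) and Siglech (-0.225 to 0.47), both lowest without replicate 3. With upper quartile size factors Ly6e, Aldoa and Becn1 fell short of the fold change asked for. Genes under 1 CPM rest on few counts, and depth limits their folds.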
